A study of Mus musculus with 8 samples.

Results

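The comparison described here asked whether the change in gene expression that goes with Bach2 deletion differs between the light zone (LZ) and the dark zone (DZ) of the germinal center. For each gene the difference between Bach2(f/f) and Bach2(+/+) cells in the LZ was set against the same difference in the DZ, on log2(FPKM + 1). FPKM is a fragment count divided by transcript length and by library depth. The LZ difference minus the DZ difference is called the zone interaction below: it is positive where the LZ difference lay above the DZ difference. The genes described are the 7777 of 23234 in the deposited table with a mean of at least 5 FPKM over all 8 libraries, with symbols that name a microRNA or a small nucleolar RNA (Mir, Snora, Snord, Scarna) left out.

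The study concerns how survival signals and mTORC1 bear on the precursors of memory B cells. All 4 groups carried ERT2cre(KI/+), a Cre recombinase activated by tamoxifen, the antigen receptor knock-in B1-8hi(KI/+) and Prdm1(f/f), on a C57BL/6 background, so the Bach2(+/+) cells are Prdm1 single knockouts and not wild type. Naive B cells of either Bach2 genotype were moved into wild-type hosts, which kept their own lymphocytes and were given 3 mg of tamoxifen for 3 days before immunization with NP-CGG in alum. On day 10, NP-binding donor GL7+CD38- B cells were sorted from pooled spleens of 5 recipients into LZ (CD86 high, CXCR4 low) and DZ (CD86 low, CXCR4 high) cells, about 30000 cells for each of 2 libraries per group.

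Germinal center B cells divide and mutate their antigen receptor genes in the dark zone, then compete for antigen and T cell help in the light zone. BACH2 is a transcriptional repressor of the BACH and MAF family that represses Prdm1, the gene of the plasma cell regulator BLIMP1, and it is needed for germinal centers and for memory B cells. mTORC1 is a kinase complex that couples growth signals to protein, nucleotide and lipid synthesis.

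Bach2 transcript did not serve as a check of the genotype labels. Libraries labelled Bach2(f/f) held 64.5 and 62.7 FPKM in LZ against 49.8 and 53.4 in those labelled Bach2(+/+), and 96.2 and 94.5 against 76.2 and 74.6 in DZ. Bach2 thus rose in the labelled Bach2(f/f) cells in LZ (0.30, adjusted p = 0.00454) and in DZ (0.33, adjusted p = 0.00894), with a zone interaction of -0.04 ± 0.062 (SE). The labels do not say which exons are floxed, and a gene-level value over exons outside the deleted stretch would not show the deletion, so every direction below rests on the labels. Prdm1 was at or below 0.98 FPKM in all 8 libraries and was not tested: it stood at 0.0577 and 0.0184 in Bach2(+/+) LZ, 0.98 and 0.967 in Bach2(f/f) LZ, 0.0473 and 0.122 in Bach2(+/+) DZ, and 0.258 and 0.434 in Bach2(f/f) DZ. Cd86 and Cxcr4, the sort markers, ordered the zones as sorted in all 8 libraries, Cd86 being 77.4 to 106 FPKM in LZ and 31.2 to 38.4 in DZ, and Cxcr4 73.5 to 78.3 in LZ and 129 to 139 in DZ.

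The FPKM values of a library summed to between 502214 and 540885, and 10192 to 10250 genes per library reached 1 FPKM. Absolute depth is unknown. The smallest steps of the low values put the DZ libraries at 1.42 to 1.63 times and the LZ libraries at 1 to 1.10 times the depth of the shallowest. Replicates correlated across member genes with Pearson r between 0.985 and 0.996. The 12 germinal center B cell markers were present in all libraries, and summed to 4401 and 4506 FPKM in Bach2(+/+) LZ, 3932 and 3912 in Bach2(f/f) LZ, 3991 and 4146 in Bach2(+/+) DZ and 3576 and 3611 in Bach2(f/f) DZ, lower in Bach2(f/f) in both zones. Of the 14 T cell markers measured, 12 were under 1 FPKM everywhere, as were 8 of 10 NK cell markers and 11 of 13 stromal and follicular dendritic markers, 4 of these last at 0 in all libraries. The T cell kinase gene Lck carried the T cell sum, at 53.0 to 64.6 FPKM in LZ and 32.7 to 35.1 in DZ. Summed levels of the naive and marginal zone B cell marker list were 522 and 556 FPKM in Bach2(+/+) LZ, 329.7 and 338 in Bach2(f/f) LZ, 264 and 261 in Bach2(+/+) DZ and 189.7 and 185 in Bach2(f/f) DZ. Summed myeloid markers ran from 119 to 271 FPKM, highest in Bach2(f/f) LZ replicate 2. The part of any of these marker lists in the results was not tested. The labels do not say whether the replicates came from separate pools of mice, so p-values measure the spread between these libraries, which may be technical.

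The response to Bach2 deletion was broadly shared between the zones. In LZ, 1721 member genes rose (22.1%) and 1086 fell (14.0%), and in DZ 606 rose (7.79%) and 474 fell (6.09%), by limma with Benjamini-Hochberg adjustment at 0.05. Of the genes called in both zones, 546 rose in both, 419 fell in both and 6 went in opposite directions. The genes called in DZ were 89.9% also called in LZ, and those called in LZ were 34.6% also called in DZ. Both calls of a gene used the same residual variance from 1 fit, so this overlap is not one of independent tests. Across the 7777 genes the LZ and DZ differences, which share no library, correlated with Pearson r = 0.775 and Spearman rho = 0.782, as a description over genes that are not independent replicates.

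The response was larger in LZ on most measures of size. Of the 965 genes called in both zones with the same direction, the LZ difference was the larger in 777 and the DZ difference in 188. The median absolute difference was 0.16 in LZ and 0.11 in DZ over all member genes. The number of called genes depended on single libraries: leaving out each library in turn gave 1475 to 2746 called genes in LZ and 90 to 1158 in DZ. The LZ count of 2807 fell to 1475 without Bach2(f/f) LZ replicate 1 and to 1712 without its replicate 2. The DZ count of 1080 fell to 90 and 103 without Bach2(f/f) DZ replicate 1 or 2, to 343 and 489 without Bach2(+/+) DZ replicate 1 or 2, and to 645 and 641 without Bach2(f/f) LZ replicate 1 or 2, each with fewer residual degrees of freedom. Upper quartile scaling turned the majority in LZ from 61.3% to 47.3% higher, so the balance of rising and falling genes is not firm, and the difference between the LZ and DZ counts was not itself tested. Calls of 1 direction in both zones, 965 in all, ran from 89 to 990 with single libraries left out.

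**Figure D1:**
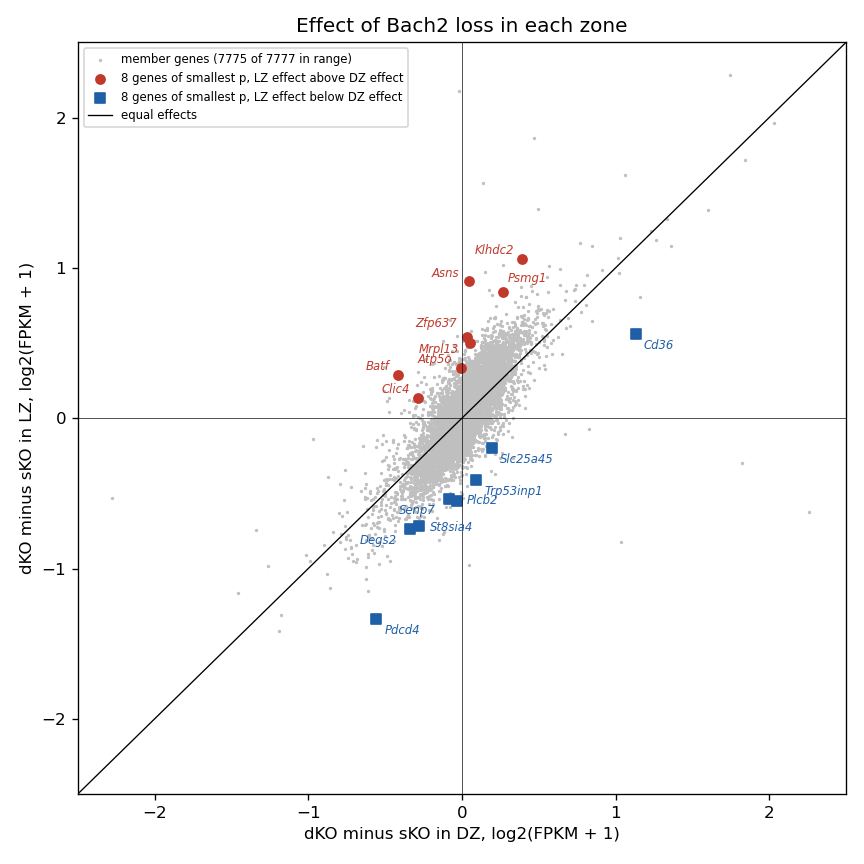
Bach2(f/f) minus Bach2(+/+) in DZ (x axis) against the same in LZ (y axis), both as log2(FPKM + 1), for member genes within the plotted range. On the axes dKO stands for Bach2(f/f) and sKO for Bach2(+/+). Red circles and blue squares are the 8 genes of smallest p on each side of the line of equal effects, unnamed gene models left out. The LZ and DZ differences rise together (Pearson r = 0.775). The LZ difference is the larger in 777 of 965 genes called in both zones with the same direction. Of the marked genes, Batf and Clic4 lie in the quadrant of higher values in LZ and lower values in DZ. Atp5o lies at the edge of that quadrant (-0.007 in DZ).

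No member gene passed the test of the zone interaction itself. In limma the smallest adjusted p among members was 0.142, and over all 10610 genes tested 3 passed (0.0283%), all of them microRNA symbols outside the member set. Among members 1037 had an unadjusted p under 0.05, of which 663 were positive (8.53% of members) and 374 negative (4.81%). That count ran from 625 to 1288 when single libraries were left out, and was 650 without Bach2(f/f) LZ replicate 1, 625 without Bach2(f/f) DZ replicate 1 and 638 without its replicate 2. The positive share of 63.9% was 43.6% with upper quartile scaling, 54.1% with median log ratio scaling and 44.9% with quantile normalization, so the majority direction flips with the scaling. A robust variance prior called 2 members, Batf at an adjusted p of 0.0482 and Asns at 0.0494. Leaving out Bach2(+/+) LZ replicate 1 called Actr3, and leaving out Bach2(+/+) DZ replicate 2 called Sfi1. The other alternatives called none.

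The intervals show how large a difference between zones could remain. The 95% interval of the interaction lay within ±1 on the log2 scale for 7689 members (98.9%) and within ±0.5 for 6501 (83.6%). The median absolute interaction was 0.097 beside a median SE of 0.093. It exceeded 0.5 in 66 members and 1 in 10. In 1343 members (17.3%) every LZ difference between single libraries lay above every DZ difference, and in 920 (11.8%) every one lay below. Among the 1037 members with an unadjusted p under 0.05, the differences in the 2 zones had the same sign and were larger in LZ in 713, had the same sign and were larger in DZ in 46, and had opposite signs in 278.

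Batf, an AP-1 family factor needed for germinal centers and class switching, had the smallest p of all members and opposite changes in the 2 zones. In LZ it read 36.2 and 35.3 FPKM in Bach2(+/+) and 42.6 and 45.3 in Bach2(f/f), and in DZ 11.2 and 11.1 in Bach2(+/+) and 8.45 and 7.79 in Bach2(f/f). The groups did not overlap in either zone. Batf rose in LZ (0.29, adjusted p = 0.00981) and fell in DZ (-0.41, adjusted p = 0.00891). Its interaction was 0.70 ± 0.077 (SE, 95% interval 0.52 to 0.89, adjusted p = 0.142), so the drop in level from LZ to DZ was steeper in Bach2(f/f). With single libraries left out the interaction ran from 0.65 to 0.76. The opposite calls in both zones held in 18 of 21 alternatives.

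The other 5 genes called in opposite directions held that pattern in fewer alternatives. Clic4, an intracellular chloride channel protein, read 30.3 and 30.6 FPKM in Bach2(+/+) LZ, 32.9 and 34.2 in Bach2(f/f) LZ, 38.5 and 40.0 in Bach2(+/+) DZ and 32.3 and 31.7 in Bach2(f/f) DZ. Its level in the zones was apart in Bach2(+/+) and close together in Bach2(f/f). Clic4 rose in LZ (0.14, adjusted p = 0.0460) and fell in DZ (-0.28, adjusted p = 0.0113), in 5 of 21 alternatives as well. Pdia4, a protein disulfide isomerase of the endoplasmic reticulum, rose in LZ (0.18) and fell in DZ (-0.20), also in 5 of 21 alternatives. Slc25a45, a mitochondrial carrier, fell in LZ (-0.20) and rose in DZ (0.20), again in 5. Eci1, an enzyme of fatty acid oxidation (0.24 in LZ, -0.27 in DZ), held in 6 alternatives, and the unnamed gene model BC031353 (-0.27 in LZ, 0.24 in DZ) in 14. Eci1 and BC031353 were named after their values were seen.

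Asns, asparagine synthetase, rose in LZ, did not pass in DZ, and had the next smallest p. It read 7.88 and 8.96 FPKM in Bach2(+/+) LZ and 16.9 and 16.6 in Bach2(f/f) LZ, while all 4 DZ libraries lay between 5.56 and 5.96. The LZ difference was 0.91 (adjusted p = 0.000918) and the DZ difference 0.05 (adjusted p = 0.724). The interaction was 0.87 ± 0.099 (SE, 95% interval 0.63 to 1.10, adjusted p = 0.142), and 0.79 to 0.95 with single libraries left out.

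The other 5 of the 8 positive genes with the smallest p all rose in LZ. Mrpl13, a protein of the mitochondrial ribosome, went from 52.4 and 53.5 to 75.5 and 74.7 FPKM in LZ and from 49.9 and 50.8 to 51.6 and 53.1 in DZ (interaction 0.44 ± 0.051). Atp5o, a subunit of ATP synthase, went from 172 and 177 to 222 and 219.7 FPKM in LZ, and its 4 DZ libraries lay between 192 and 196 (0.34 ± 0.048). In both genes the DZ groups differed far less than the LZ groups did. Klhdc2, a substrate receptor of a ubiquitin ligase, rose in LZ (1.06, adjusted p = 0.000887) and in DZ (0.39, adjusted p = 0.0199). Psmg1, a proteasome assembly chaperone, also rose in LZ (0.84) and in DZ (0.27, adjusted p = 0.0446). Zfp637, a zinc finger gene, rose in LZ (0.54, adjusted p = 0.00178) and differed by 0.03 in DZ. The adjusted p of the interaction was 0.142 to 0.291 in these 5 genes.

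**Figure D2:**
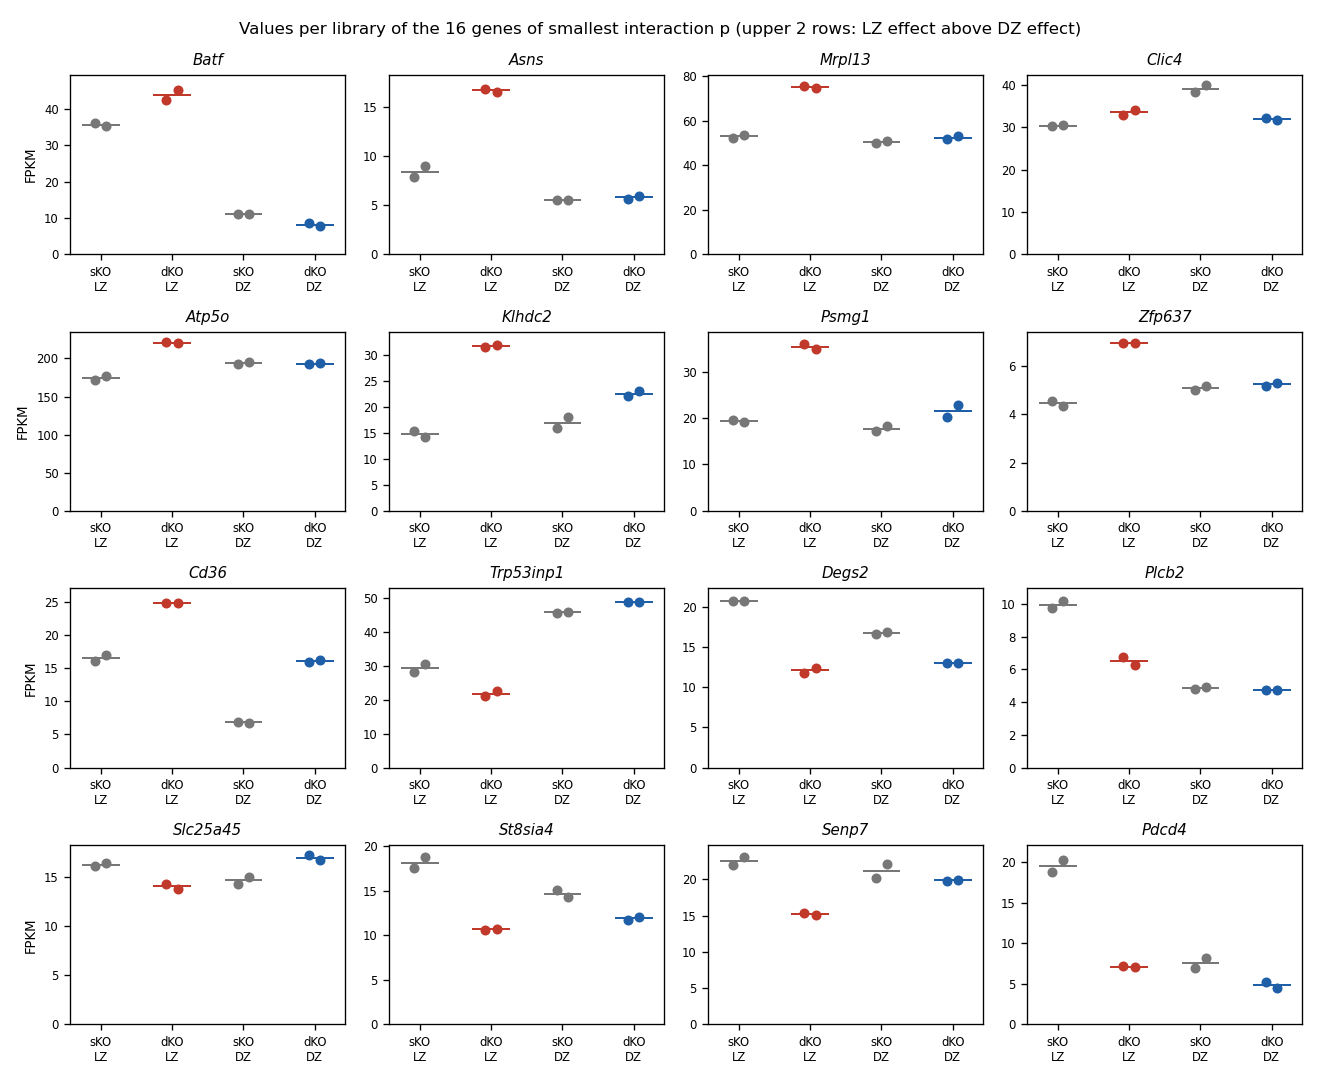
FPKM in every library for the 16 genes of smallest interaction p, 1 panel a gene, with the y axis starting at 0; points are libraries, bars are group means, dKO is Bach2(f/f) and sKO is Bach2(+/+). Batf lies higher in Bach2(f/f) than in Bach2(+/+) in LZ and lower in DZ, and the 4 DZ points of Asns lie between 5.56 and 5.96 FPKM.

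Among the 8 negative genes with the smallest p, 7 fell in LZ and 1, Cd36, rose in both zones. Pdcd4, an inhibitor of translation initiation, read 18.8 and 20.2 FPKM in Bach2(+/+) LZ, 7.18 and 7.08 in Bach2(f/f) LZ, 7.0 and 8.24 in Bach2(+/+) DZ and 5.26 and 4.46 in Bach2(f/f) DZ. The Bach2(f/f) LZ libraries thus came close to the DZ level of the Bach2(+/+) cells. Pdcd4 fell in LZ (-1.33, adjusted p = 0.000887) and in DZ (-0.56, adjusted p = 0.0187), with an interaction of -0.78 ± 0.14 (adjusted p = 0.291). Cd36, a fatty acid scavenger receptor, went from 16.1 and 17.0 to 24.8 and 24.8 FPKM in LZ and from 6.90 and 6.72 to 16 and 16.2 in DZ. Cd36 rose more in DZ on the log scale (1.13 against 0.56, interaction -0.57 ± 0.067, adjusted p = 0.142), and its interaction on linear FPKM was -1.02.

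Trp53inp1, a p53-induced regulator of cell death and autophagy, fell in LZ from 28.1 and 30.4 to 21.0 and 22.6 FPKM (-0.41, adjusted p = 0.00302). In DZ it read 45.6 and 45.8 in Bach2(+/+) and 48.6 and 48.8 in Bach2(f/f), a difference that did not pass (0.09, adjusted p = 0.336). Plcb2, a phospholipase downstream of G protein-coupled receptors, also fell in LZ (by 0.55) and differed by -0.03 in DZ. Unlike Trp53inp1, Plcb2 stood higher in LZ (mean 9.94 FPKM) than in DZ (mean 4.86 FPKM) in Bach2(+/+). Senp7, a SUMO protease, fell by 0.54 in LZ and differed by -0.08 in DZ. Degs2, a sphingolipid desaturase, and St8sia4, a polysialyltransferase, fell in both zones, by 0.74 and 0.72 in LZ and by 0.34 and 0.28 in DZ.

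**Figure D3:**
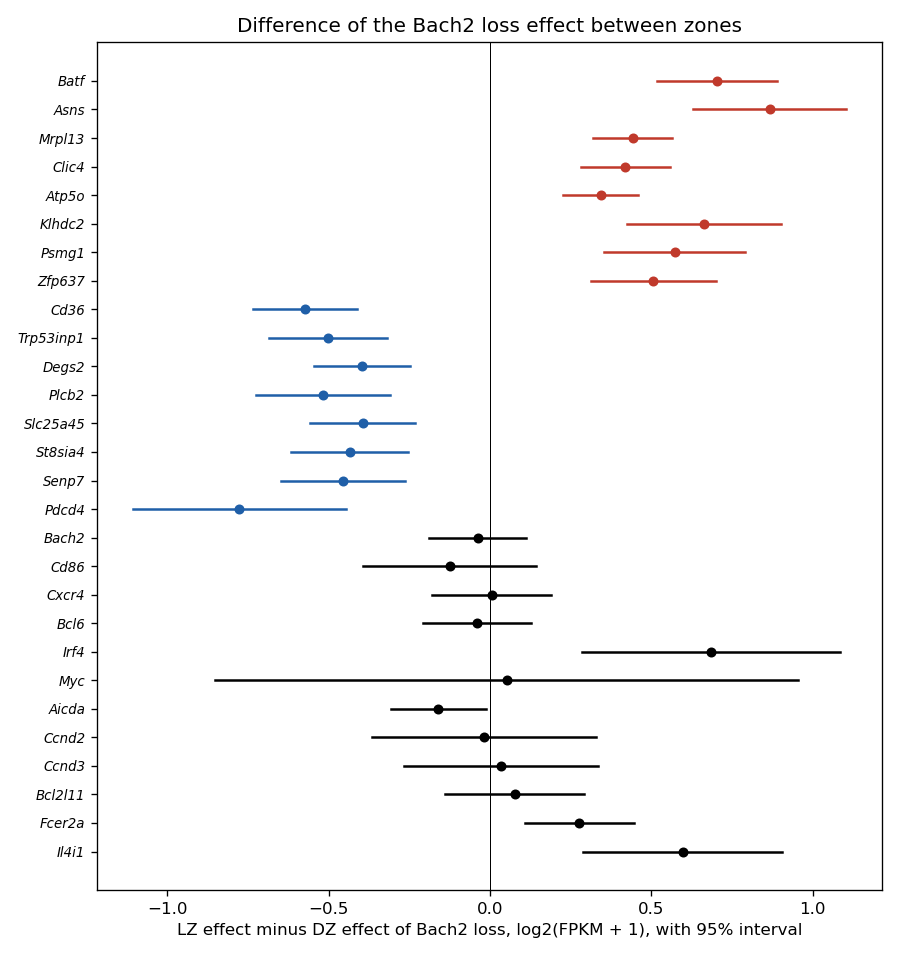
Zone interaction (x axis, log2(FPKM + 1)) with its 95% interval for the 8 positive (red) and 8 negative (blue) genes of smallest p. Fixed genes of the germinal center are in black. No interval of the 16 crosses 0, and none of the 16 passed after adjustment over 10610 genes. Among the fixed genes, intervals of Bach2, Cd86, Cxcr4, Bcl6, Myc, Ccnd2, Ccnd3 and Bcl2l11 cross 0, and those of Irf4, Fcer2a and Il4i1 do not. The 16 genes were picked by p, so their intervals are a description.

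Marker lists aside, the gene lists with the highest median interactions were those of growth, with members that rose in both zones and a larger median in LZ. Of 39 member genes of the list of MYC targets and ribosome biogenesis, 38 rose in LZ and 28 in DZ, with medians of 0.53 and 0.36. Their interactions were positive in 38 of 39, with a median of 0.19 beside 0.02 over all members, and 18 had an unadjusted p under 0.05 against the 8.53% of all members. Npm1, the nucleolar protein nucleophosmin, went from 734 and 744 to 1061 and 1044 FPKM in LZ and from 536 and 559 to 632 and 628 in DZ (interaction 0.31 ± 0.056, adjusted p = 0.291); it has processed copies whose reads the counting may have shared. Gnl3, a nucleolar GTPase, rose by 0.63 in LZ and 0.41 in DZ, and Ncl, nucleolin, by 0.54 and 0.31. The list median stayed between 0.15 and 0.21 in all 21 alternatives. The count of 18 was 11 with quantile normalization, and fell to 7 without Bach2(f/f) LZ replicate 1, to 11 without Bach2(f/f) DZ replicate 1 and to 8 without its replicate 2. Myc itself read 41.6 and 32.6 FPKM in Bach2(+/+) LZ, 55.3 and 52.5 in Bach2(f/f) LZ, 27.4 and 14.4 in Bach2(+/+) DZ and 28.1 and 28.4 in Bach2(f/f) DZ. Its interaction of 0.05 ± 0.38 has an interval of -0.85 to 0.96, and the replicates of Bach2(+/+) DZ lay further apart than the genotypes.

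Replication and chaperone genes followed the same layout. Of 35 genes of G1/S and DNA replication, 32 rose in LZ and 20 in DZ (medians 0.42 and 0.24), the median interaction was 0.19, and 33 were positive, 17 of them with an unadjusted p under 0.05. Rfc4, a subunit of the clamp loader, went from 52.6 and 49.9 to 76.7 and 74.7 FPKM in LZ and from 59.8 and 60.5 to 71.1 and 72.6 in DZ. Ccne1, cyclin E1, rose in LZ by 0.41 and differed by 0.10 in DZ, and Tk1, thymidine kinase, rose in LZ by 0.29 and differed by 0.01 in DZ. The count of 17 was 8 with quantile normalization, and fell to 8 without Bach2(f/f) LZ replicate 2 or DZ replicate 1, to 10 without Bach2(f/f) DZ replicate 2 or Bach2(+/+) LZ replicate 2, and to 11 without Bach2(+/+) DZ replicate 2. Of 18 heat shock and chaperonin genes, 17 rose in LZ and 9 in DZ (medians 0.44 and 0.22), and all 18 interactions were positive with a median of 0.18, 12 with an unadjusted p under 0.05. That count was 5 with quantile normalization, 3 without Bach2(f/f) LZ replicate 1, 4 without Bach2(f/f) DZ replicate 2, 6 without Bach2(+/+) DZ replicate 2 and 7 without Bach2(f/f) LZ replicate 2 or DZ replicate 1. Cct3, a subunit of the folding complex TRiC, read 129.7 and 127 FPKM in Bach2(+/+) LZ, 192 and 188 in Bach2(f/f) LZ, 117 and 123 in Bach2(+/+) DZ and 146 and 148 in Bach2(f/f) DZ. Of 40 G2/M genes, 21 rose in LZ and 2 in DZ, beside 22.1% and 7.79% of all members, and their median interaction was 0.10. That median was 0.19 without Bach2(+/+) LZ replicate 1 and 0.04 without its replicate 2, and with single libraries left out 23 to 39 of the 40 were positive, 1 to 20 of them at an unadjusted p under 0.05. Mitotic Cks2 rose in LZ (0.28, adjusted p = 0.0106) and differed by 0.01 in DZ.

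Genes of mTORC1 and ATF4, the factor that turns on amino acid synthesis and uptake, included Asns. Of 24 members of this list, 16 rose and 1 fell in LZ, 8 rose and 1 fell in DZ, and the medians were 0.32 and 0.17. The median interaction was 0.18, with 22 positive and with 11 positive and 1 negative at an unadjusted p under 0.05. Among all members 22.1% rose and 14.0% fell in LZ, and 7.79% rose and 6.09% fell in DZ. Those positive and negative at that unadjusted p were 8.53% and 4.81% of all members. Psat1 and Phgdh, of serine synthesis, rose in LZ by 0.54 and 0.58, against 0.25, which passed, and 0.27, which did not, in DZ. Cars, the cysteinyl tRNA synthetase, rose in LZ by 0.45, and its DZ difference of 0.18 did not pass. The count of 11 was 5 without Bach2(f/f) LZ replicate 1, Bach2(f/f) DZ replicate 2, Bach2(+/+) LZ replicate 2 or Bach2(+/+) DZ replicate 2, and 7 without Bach2(f/f) LZ replicate 2.

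Because these genes moved together, promoters of the list were searched for the amino acid response element, the site bound by ATF4, as TGATGNAAN on either strand. The element was added after values were seen. In the RefSeq promoter table of build GRCm38.p6, which covers a fixed window around each gene's start, most of it upstream, 5 of the 19 matched list members held it (Aars, Asns, Gars, Pck2 and Slc7a11), beside 2.49% of the 5662 matched member genes and 4.5% of all 27025 promoters. It was no more frequent in the matched genes with a positive interaction at an unadjusted p under 0.05 (12 of 491, 2.44%) or a negative one (5 of 271, 1.85%). The list was drawn up from genes known as ATF4 targets, so its share is no independent result. The match is a description and not a bound site. The matches are shown for Asns, which has the largest interaction in the list (chr6:7693210-7693269, minus strand, match 23 to 15 bases before the start), and for the alanyl and glycyl tRNA synthetase genes Aars (chr8:111033703-111033762, plus strand, antisense match 113 to 105 bases before the start) and Gars (chr6:55037941-55038000, plus strand, antisense match 31 to 23 bases before the start). Each is read 5′ to 3′ on the strand of the gene, with the match in capitals.
Asns: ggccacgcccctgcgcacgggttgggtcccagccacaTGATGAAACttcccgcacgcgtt
Aars: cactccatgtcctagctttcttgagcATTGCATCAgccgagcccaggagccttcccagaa
Gars: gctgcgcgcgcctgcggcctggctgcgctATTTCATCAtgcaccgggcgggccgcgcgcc

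Other metabolic groups had smaller interactions. Of 23 cholesterol synthesis genes, 15 rose in LZ and 9 in DZ, with a median interaction of 0.11 (0.17 without Bach2(+/+) DZ replicate 1 or Bach2(f/f) DZ replicate 1). Fdft1, squalene synthase, rose in LZ (0.50, adjusted p = 0.00183) and differed by 0.13 in DZ. Of 15 glycolysis genes, 10 rose in LZ and 6 in DZ, and the median interaction was 0.14, or 0.07 without Bach2(+/+) DZ replicate 2 and 0.22 without Bach2(+/+) LZ replicate 1. Pfkp, a phosphofructokinase, rose in LZ (0.24, adjusted p = 0.00584) and differed by -0.04 in DZ. Of 42 respiratory chain genes, 15 rose in LZ, and 1 rose and 1 fell in DZ, with a median interaction of 0.10, or 0.21 without Bach2(+/+) DZ replicate 1 and 0.04 without its replicate 2. Atp5c1, the gamma subunit of ATP synthase, had the smallest interaction p of the list (0.18 ± 0.053, adjusted p = 0.356) and passed in neither zone. Beside 8.53% of all members, 5 of the 42 were positive at an unadjusted p under 0.05. The respiratory count at an unadjusted p under 0.05 depended on single libraries, being 5 in all, 0 without Bach2(f/f) LZ replicate 1, 1 without Bach2(f/f) LZ replicate 2 or Bach2(+/+) DZ replicate 2, 2 without Bach2(f/f) DZ replicate 1 and 21 without Bach2(+/+) DZ replicate 1. The 28 cytosolic ribosomal protein genes differed little: 1 rose and 1 fell in LZ, none passed in DZ, and their median interaction of 0.05 was -0.01 without Bach2(+/+) DZ replicate 2 and 0.11 without its replicate 1. Rps23, of the small subunit, had the smallest p (0.12 ± 0.056, adjusted p = 0.477) and has copies whose reads may be shared.

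**Figure D4:**
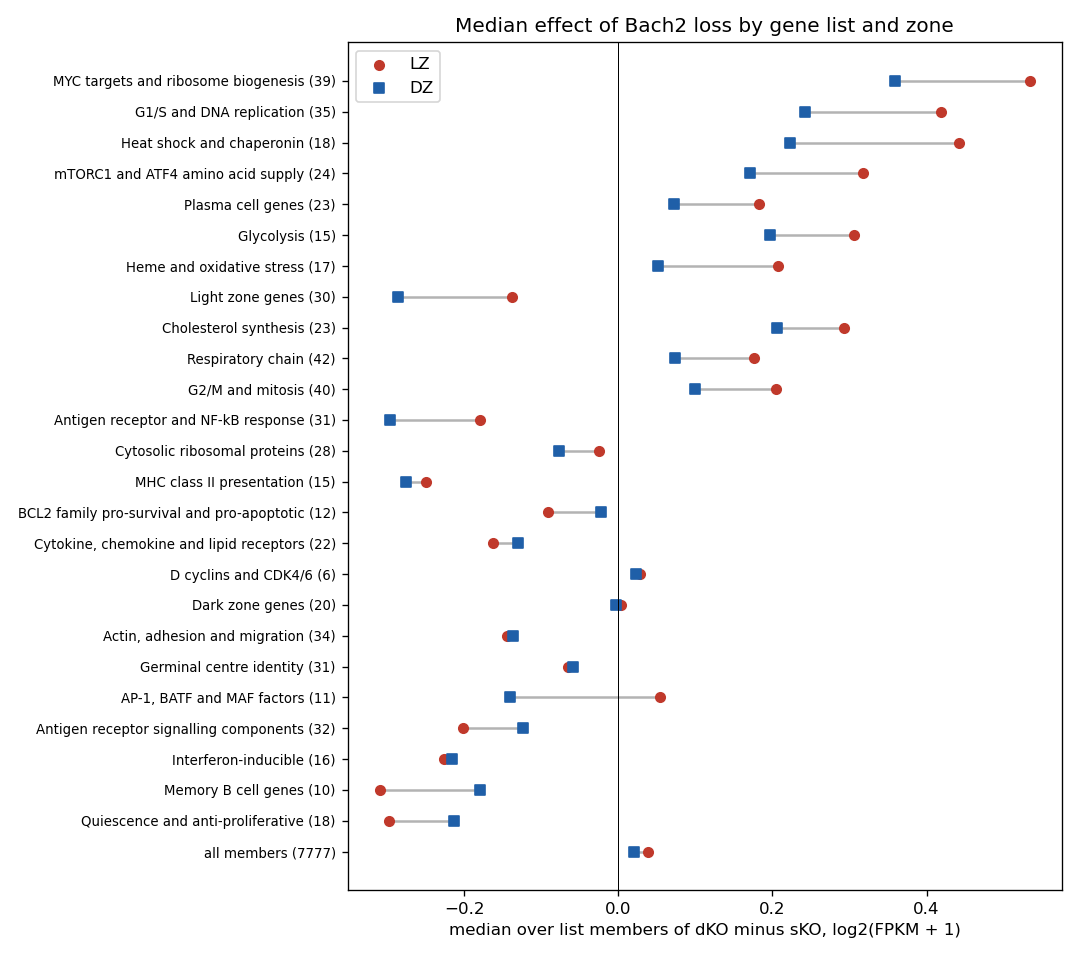
Median difference between Bach2(f/f) and Bach2(+/+) in LZ and in DZ (x axis, log2(FPKM + 1)) for the member genes of each list (number in brackets), with all members for comparison; dKO is Bach2(f/f) and sKO is Bach2(+/+). The LZ median lies above the DZ median in the growth lists and below it in the memory and quiescence lists.

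Light zone genes had a lower median difference in DZ than in LZ on the log scale. Of 30 members of the list, 2 rose and 9 fell in LZ and 14 fell in DZ, and the medians were -0.14 and -0.29. Their interactions were positive in 25 with a median of 0.13 (0.08 without Bach2(+/+) DZ replicate 1 and 0.19 without its replicate 2), and 7 had an unadjusted p under 0.05, or 6 to 9 with single libraries left out. Among all members 22.1% rose and 14.0% fell in LZ, 6.09% fell in DZ, and 8.53% were positive at that unadjusted p. Irf4, a factor that directs both germinal center entry and plasma cell differentiation, read 11 and 11.6 FPKM in Bach2(+/+) LZ, 12.8 and 13.0 in Bach2(f/f) LZ, 4.05 and 3.01 in Bach2(+/+) DZ and 1.99 and 2.35 in Bach2(f/f) DZ. It fell in DZ (-0.51, adjusted p = 0.0417), and its LZ difference of 0.18 did not pass (interaction 0.69 ± 0.17, adjusted p = 0.336). Nfkb2, an NF-kB subunit, fell in LZ (-0.16) and in DZ (-0.45, adjusted p = 0.00555). Nfkbid, an atypical regulator of NF-kB, rose in LZ (0.45) and differed by -0.06 in DZ.

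For light zone genes of very different level in the zones, the sign of the interaction depended on the scale. Il4i1, a secreted amino acid oxidase, went from 94.0 and 103 to 56.1 and 61.1 FPKM in LZ and from 10.6 and 9.53 to 3.09 and 3.67 in DZ. Its interaction was 0.60 ± 0.13 (adjusted p = 0.336) on the log scale and -33.4 FPKM on the linear scale. Fcer2a, which encodes the low-affinity IgE receptor CD23, went from 270.3 and 292 to 139.7 and 144 FPKM in LZ and from 68.8 and 70.9 to 28 and 29.2 in DZ. It fell in both zones (-0.98 and -1.26), with an interaction of 0.28 ± 0.07 (adjusted p = 0.336) on the log scale and -98.3 FPKM on the linear scale. Of the 1037 members with an unadjusted p under 0.05, 9 changed sign between the scales. In these bulk libraries fewer cells of a kind and less RNA per cell cannot be told apart.

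Promoters were also searched for TGACTCA, the core shared by AP-1 and BACH-MAF factors, on either strand. It occurred in 5.95% of all 27025 promoters, 3.44% of matched member genes, 15 of 491 (3.05%) matched genes with a positive interaction at an unadjusted p under 0.05 and 14 of 271 (5.17%) with a negative one. None of the 14 matched genes among the 16 of smallest p held it in this window. Of the 43 matched genes among those named by rule, 3 held it: Fcer2a, Mndal and Atp5c1, the last of which passed in neither zone. The longer BACH-MAF element, searched on either strand and overlapping the core, occurred in 45 promoters (0.167%), 6 of them of member genes. The core, in capitals, is shown for 2 genes that fell in both zones: Fcer2a (GRCm38.p6, chr8:3690891-3690950, minus strand, match 62 to 56 bases before the start) and Mndal (chr1:173879987-173880046, minus strand, antisense match 61 to 55 bases before the start). Mndal is an interferon-inducible gene with close relatives whose reads may be shared, and it fell by 1.07 in LZ and by 0.62 in DZ.
Fcer2a: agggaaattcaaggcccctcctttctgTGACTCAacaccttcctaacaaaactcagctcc
Mndal: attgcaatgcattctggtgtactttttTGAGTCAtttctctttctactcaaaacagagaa

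Plasma cell genes passed in LZ in 1 direction and in DZ in both. Of 23 members of the list, 11 rose in LZ and 4 rose and 3 fell in DZ, with a median interaction of 0.16 and 8 positive at an unadjusted p under 0.05 (5 without Bach2(f/f) LZ replicate 1). The median was 0.10 without Bach2(f/f) DZ replicate 1. Among all members 22.1% rose in LZ, 7.79% rose and 6.09% fell in DZ, and 8.53% were positive at that unadjusted p. Pdia4 read 23.5 and 23.9 FPKM in Bach2(+/+) LZ, 27.3 and 26.8 in Bach2(f/f) LZ, 15.5 and 14.8 in Bach2(+/+) DZ and 12.8 and 13.4 in Bach2(f/f) DZ, with groups that did not overlap in either zone. Manf, a stress-induced factor of the endoplasmic reticulum, rose in LZ (0.39, adjusted p = 0.0031) and differed by 0.02 in DZ. Hsp90b1, the chaperone GRP94, rose in both zones (0.51 and 0.28). The marker list of plasma cells summed to 365 and 349 FPKM in Bach2(+/+) LZ, 405 and 407 in Bach2(f/f) LZ, 487 and 504 in Bach2(+/+) DZ and 518 and 529 in Bach2(f/f) DZ. The sum was higher in Bach2(f/f) in both zones, but its members did not rise as a set. Of the 4 members, 1 rose in LZ, while in DZ none rose and 1, Irf4, fell. Their median DZ difference was 0.0008. The part of this marker list in the results was not tested.

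Memory and quiescence genes had mostly negative interactions, with lower medians in LZ than in DZ. Of 10 memory B cell members, 5 fell in LZ and 2 in DZ (medians -0.31 and -0.18), and 9 of 10 interactions were negative with a median of -0.18 (-0.11 without Bach2(+/+) DZ replicate 2), 3 at an unadjusted p under 0.05 (1 to 5 with single libraries left out). Among all members 14.0% fell in LZ, 6.09% fell in DZ and 4.81% had a negative interaction at that unadjusted p. The memory list held 30 genes, of which only these 10 were members. Nt5e, the ectoenzyme CD73, read 8.64 and 9.17 FPKM in Bach2(+/+) LZ, 6.30 and 6.62 in Bach2(f/f) LZ, and 15.8 to 16.9 in all 4 DZ libraries. Cd38, an ectoenzyme whose surface protein was a gate of the sort, fell in LZ (-0.92) and in DZ (-0.61). Ccr6, a chemokine receptor of memory precursors, averaged under 5 FPKM and is no member: it read 3.11 and 3.40 in Bach2(+/+) LZ and 0.848 and 0.696 in Bach2(f/f) LZ, and at most 0.118 in DZ with 2 libraries listed at 0. Its LZ fall passed (-1.26, adjusted p = 0.0011), while a fall in DZ could hardly have shown at that level. The naive and marginal zone marker sums given above were also lower in Bach2(f/f) in both zones. Fcer2a made up much of them, at 270.3 and 292 FPKM in Bach2(+/+) LZ and 139.7 and 144 in Bach2(f/f) LZ. Of the 8 members of that list, 2 rose and 3 fell in LZ, and 1 rose and 3 fell in DZ. Cd36 was among those that rose. The part of these markers in the results was not tested.

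Of 18 quiescence and anti-proliferative members, 8 fell in LZ and 7 in DZ, with medians of -0.30 and -0.21. Their interactions were negative in 15 with a median of -0.18 (-0.10 without Bach2(+/+) LZ replicate 1 and -0.11 without Bach2(+/+) DZ replicate 2), 6 at an unadjusted p under 0.05 beside 4.81% of all members, and 4 to 7 with single libraries left out. Mxd4, a MYC antagonist, fell in LZ (-1.15) and in DZ (-0.61), and Btg1, an anti-proliferative factor, fell in LZ (-0.85) and in DZ (-0.52). Slfn2, which maintains lymphocyte quiescence, went the other way, with a fall in DZ (-0.97, adjusted p = 0.00584), a difference of -0.14 in LZ that did not pass and an interaction of 0.83.

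**Figure D5:**
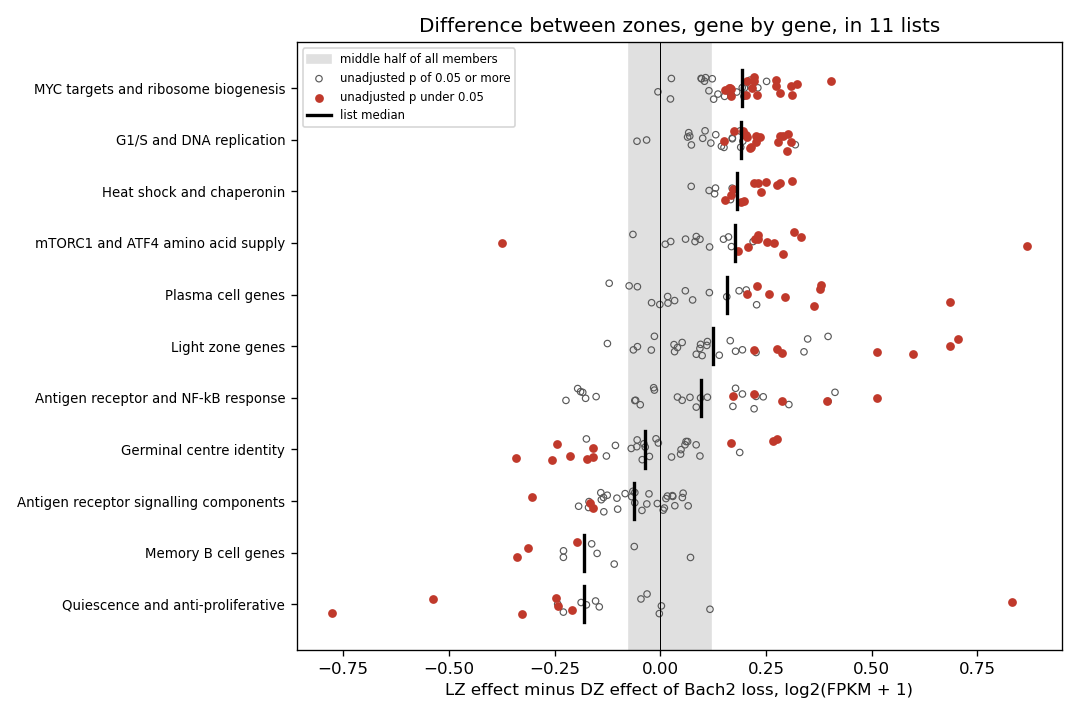
Zone interaction of each member gene (x axis, log2(FPKM + 1)) in 11 lists; filled points have an unadjusted p under 0.05, the black bar is the list median and the grey band the interquartile range of all members (-0.07 to 0.12). Slfn2 stands at 0.83 in the quiescence row, apart from Pdcd4 at -0.78, and Asns stands at 0.87 in the mTORC1 row.

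Germinal center identity genes and antigen receptor components had median interactions of -0.04 and -0.06. Of 31 identity members, 3 rose and 7 fell in LZ and 3 rose and 3 fell in DZ. Over all members 22.1% rose and 14.0% fell in LZ, and 7.79% rose and 6.09% fell in DZ. The median interaction of the identity list was 0.01 without Bach2(+/+) LZ replicate 1 and -0.10 with quantile normalization. At an unadjusted p under 0.05, 3 interactions of the identity list were positive and 7 negative, beside 8.53% and 4.81% of all members. Mybl2, a cell cycle factor, rose in both zones (0.47 and 0.21). Rgs13, a regulator of G protein signaling, fell in DZ (-0.30, adjusted p = 0.0259) and differed by -0.02 in LZ. Both had positive interactions (0.27 and 0.28), unlike most of the list. Bcl6, the master repressor of the germinal center, read 114 to 129.7 FPKM in all LZ and 118 to 126 in all DZ libraries, with an interaction of -0.04 ± 0.07 and an interval of -0.21 to 0.13. Of 32 antigen receptor signaling components, 20 fell in LZ and 12 in DZ, and 1 rose in each. Their median interaction was -0.04 without Bach2(+/+) DZ replicate 2 or Bach2(f/f) DZ replicate 1 and -0.14 with quantile normalization. Syk, the proximal kinase of the receptor, fell in LZ (-0.47) and in DZ (-0.30). The 31 antigen receptor and NF-kB response genes had a median interaction of 0.10 that rested on single libraries. It was 0.31 without Bach2(+/+) LZ replicate 1, 0.28 without Bach2(+/+) DZ replicate 2, 0.01 without Bach2(+/+) DZ replicate 1 and -0.0036 without Bach2(+/+) LZ replicate 2, and 15 to 30 of the 31 were positive with single libraries left out.

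Genes of survival and cell cycle entry were described singly. Bcl2l11, the pro-apoptotic BH3 protein BIM, rose in both zones: it went from 8.05 and 7.15 to 16.1 and 16 FPKM in LZ and from 13.0 and 13.8 to 26.2 and 25.9 in DZ. The differences were 0.99 in LZ and 0.91 in DZ, the interaction was 0.08 ± 0.09 with an interval of -0.14 to 0.29, and the sign was negative with a pseudocount of 5 and on linear FPKM. Mcl1, a pro-survival member of the BCL2 family, fell in LZ (-0.35, adjusted p = 0.00211), with a DZ difference of -0.12 that did not pass. Ccnd3, the D cyclin of the dark zone, had an interaction of 0.03 ± 0.12, negative with upper quartile scaling or quantile normalization. Ccnd2 averaged under 5 FPKM and read 5.94 to 7.10 in LZ and at most 0.251 in DZ, with an interaction of -0.02 ± 0.14. Cd86 fell in LZ (-0.32, adjusted p = 0.0238) and Cxcr4 passed in neither zone. Both chose the cells and serve as a description.

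Of the lists other than markers, the remaining ones had median interactions between -0.08 and 0.14. The heme and oxidative stress list had 9 of 17 members up in LZ and 4 in DZ (median interaction 0.14, or 0.04 without Bach2(+/+) LZ replicate 2), among them thioredoxin Txn1, which rose in LZ (0.23) and differed by -0.05 in DZ. The interferon-inducible list had 8 of 16 down in LZ and 7 in DZ (-0.08), and the MHC class II list had 11 of 15 down in each zone. The MHC class II median was 0.03 and turned negative, at lowest -0.03, with upper quartile scaling or quantile normalization. H2-Ob, a chain of the HLA-DO homolog, fell by 0.59 in LZ and 0.30 in DZ. Lists of dark zone genes, actin and migration, receptors, D cyclins, the BCL2 family and AP-1 factors had medians between -0.04 and 0.03, and the sign of each turned in at least 1 alternative. The median of the AP-1 list was 0.44 without Bach2(+/+) LZ replicate 1 and 0.31 without Bach2(+/+) DZ replicate 2. Of the genes of smallest p in these lists, the replication exonuclease gene Exo1 rose in both zones (0.63 and 0.30), the cytokine receptor gene Il10ra fell in LZ (-0.24, adjusted p = 0.0202) and differed by 0.03 in DZ, the kinase gene Cdk4 rose in both (0.45 and 0.30), and the integrin gene Itgb2 passed in neither. Erythroid Hbb-b2, a beta globin with near-identical copies, read 23.7 and 22.3 FPKM in Bach2(+/+) LZ and 9.81 to 13.2 in the other 6 libraries (interaction -1.02 ± 0.19, adjusted p = 0.297). Hbb-b1, the other erythroid member, went the opposite way, at 0.00283 and 6.74 FPKM in Bach2(+/+) LZ, 13.5 and 11.9 in Bach2(f/f) LZ, 4.32 and 5.95 in Bach2(+/+) DZ and 0.00210 and 5.15 in Bach2(f/f) DZ (interaction 3.59 ± 1.56, adjusted p = 0.448). Reads of the 2 globin copies may be shared between them. The endothelial marker Pecam1 fell in both zones (-0.71 and -0.44). The marker lists had median interactions of 1.28 (erythroid, 2 members), 0.21 (T cell, 1), 0.16 (plasma cell, 4), 0.04 (myeloid, 6), 0.03 (germinal center B cell, 12), -0.12 (naive and marginal zone, 8) and -0.27 (stromal, 1), and no NK cell marker was a member. The signs of the myeloid and germinal center medians turned in 3 alternatives each. Summed erythroid markers ran from 18.6 to 39.0 FPKM, and their part in any result was not tested. At the edge of the mean FPKM threshold, AI848285 was the nearest gene inside, at 2.27 to 7.94 FPKM, and 2810453I06Rik the nearest outside, at 4.00 to 6.64.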

How the data were processed

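RNA from sorted cells was made into 8 libraries, 2 for each of 4 groups taken from the labels. The authors deposited 1 table of FPKM per gene and library, and the submitters' processing notes name TopHat2 2.0.8, Cufflinks 2.1.1 and the mouse build mm9, with no role given for each. The library kit is not stated to keep strand, so overlapping and antisense genes can share reads. No column was without a sample (0).

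FPKM values were taken as log2(FPKM + 1), which understates changes of low genes. The 10610 genes that reached 1 FPKM in 2 or more libraries were fitted in limma 3.58.1 (R 4.3.3) with 4 group means and an intensity trend, 2-sided, with Benjamini-Hochberg adjustment over all of them. The difference of log values between zones was tested as a contrast, with no replicate block. The code was tested on simulated data. Replicate numbers were not taken as pairs, since the labels do not say that same-numbered libraries share a pool.

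Members and gene lists were chosen with earlier results of these data known. Genes named are the called members and, as none was called, the 8 of smallest p in each direction (without unnamed models, receptor segments, ribosomal proteins and genes with an exact 0), the 1 of smallest p per list, fixed genes of the germinal center, members with an exact 0 and the genes nearest the threshold. Others were chosen after their values were seen. A gene of the fixed set and 1 list are not reported here. Alternatives changed the pseudocount, filter, scaling, variance prior, block and libraries. Promoters came from RefSeq (GRCm38.p6) by symbol, 5662 of 7777 members matching, without coordinates of the files.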

Additional observations from a re-analysis of the deposited data

How the results depend on the processing

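Named genes kept their direction and their side of the threshold in 1179 of 1206 combinations of gene and alternative, 25 turned and 2, Asns and Batf, passed with a robust variance prior. No named gene passed in the main fit, so keeping the side of the threshold meant not passing, which says little about how firm a gene is. On linear FPKM only the sign was compared. The genes that turned had interactions near 0 or depended on the scale. Cxcr4 was -0.0331, -0.0147 and -0.0409 with upper quartile scaling, median log ratio scaling and quantile normalization, Ccnd3 -0.0059 and -0.0382 with the first and the last of these, and Cst3 -0.0220 with quantile normalization. Bcl2l11 was -0.0156 with a pseudocount of 5 and -4.22 FPKM on the linear scale, on which Fcer2a was -98.3 and Il4i1 -33.4 FPKM. With single libraries left out, the interaction ran from -0.0860 to 0.0107 in Bach2, -0.0972 to 0.0195 in Bcl6, -0.13 to 0.0934 in Ccnd2, -0.0823 to 0.15 in Ccnd3, -0.00584 to 0.15 in Cst3, -0.0448 to 0.0578 in Cxcr4 and -0.39 to 0.49 in Myc.

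The count of genes called for the interaction was 2 with a robust variance prior and 0 to 1 with single libraries left out. Genes called in opposite directions numbered 3 with no filter, 2 with each of the 3 scalings, 2 without the variance trend and 0 to 4 with single libraries left out. The ranges with single libraries left out were 1475 to 2746 for LZ calls, 90 to 1158 for DZ calls, 89 to 990 for calls of 1 direction in both zones and 625 to 1288 for an unadjusted interaction p under 0.05. The cause of these changes was not tested beyond the loss of residual degrees of freedom.

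With the replicate number as a replicate block, no member passed the interaction (903 at an unadjusted p under 0.05, smallest adjusted p 0.442) and 2 were called in opposite directions. With a block within genotype these were 828, 0.270 and 0, DZ calls numbered 334 and calls of 1 direction in both zones 321. Deviations of same-numbered libraries correlated between -0.08 and 0.26, over 0.1 in 1 of 6 pairs of groups. That pair was LZ with DZ in Bach2(f/f) (0.26), while LZ with DZ in Bach2(+/+) gave 0.02. Pairs across genotypes do not bear on whether LZ and DZ cells came from the same pool. The labels give no pairing, so the numbers were not treated as pairs, and pairing within a genotype is not excluded. With 2 libraries a group and absolute depth unknown, differences between zones under about 0.5 in log2 were often within the intervals.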

Other observations

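The 3 genes that passed the interaction test outside the member set were microRNA symbols, each listed at 0 in at least 4 libraries. Mir194-1 read 261 and 299.7 FPKM in Bach2(+/+) DZ and was listed at 0 in the other 6 libraries. Mir1943 had the same layout, with 152 and 175 FPKM in Bach2(+/+) DZ. Mir3112 read 119 and 124 FPKM in Bach2(f/f) LZ and 161 and 92.2 in Bach2(+/+) DZ, and was listed at 0 in Bach2(+/+) LZ and Bach2(f/f) DZ.

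Of the member genes, 9 were listed at 0 in at least 1 library. Actr3, a subunit of the actin-nucleating ARP2/3 complex, was listed at 0 in Bach2(+/+) LZ replicate 2 and read 417 to 550 FPKM elsewhere. Sfi1, a centrosomal gene, was listed at 0 in Bach2(+/+) DZ replicate 1 and read 13.8 to 21.3 FPKM in the other 7. S100a8 and S100a9, genes of neutrophils, read highest in Bach2(f/f) LZ replicate 2 (53.1 and 50.7 FPKM) and stood at no more than 1.34 FPKM in all DZ libraries. The other 5 were Gm12238, Pisd-ps1, Pisd-ps3, Rnu11 and Rnu73b. Rnu73b and Rnu11 are small RNA genes that remained because their symbols do not carry the prefixes left out.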
